A study of Mus musculus with 23 samples.

Results

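The 9-1-1 clamp is a ring of 3 related proteins, Rad9, Hus1 and Rad1, that is loaded onto DNA next to damaged or stalled replication sites by a clamp loader in which Rad17 takes the place of the large subunit of replication factor C. The loaded ring recruits Topbp1, which activates the kinase Atr, and Atr phosphorylates and activates the kinase Chk1, encoded by *Chek1*. Embryonic stem cells (ESCs) divide fast with a short G1 phase, and mouse cells carry paralogues of 2 ring subunits, *Hus1b* of *Hus1* and *Rad9b* of *Rad9a*. The genes considered here are these 9 genes, *Hus1*, *Hus1b*, *Rad9a*, *Rad9b*, *Rad1*, *Rad17*, *Atr*, *Topbp1* and *Chek1*, of 37310 gene identifiers in the count files. They were taken as a pathway because *Hus1* was strongly lower in *Zbtb11* knockout cells. The comparison that led to the choice, *Zbtb11* KO against the EtOH control, is therefore given for these genes as a description, without a test. The annotation lists *Rad9a* under its older symbol, *Rad9*.

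Zbtb11 is a zinc finger protein of the BTB family that binds DNA. RNA-seq was measured in 9 libraries of E14 mouse ESCs, 3 biological replicates per group, all collected after 48 h. The EtOH control was *Zbtb11* lox/lox cells with ERt2-Cre in the *Rosa26* locus that received ethanol, the carrier. The *Zbtb11* KO was the same line given 250 nM 4-hydroxytamoxifen (4OHT), which activates the Cre recombinase and removes an exon of *Zbtb11* flanked by loxP sites. The 4OHT control was *Zbtb11* WT/WT cells with WT *Rosa26*, given 250 nM 4OHT, so that it differs from the EtOH control in genotype and treatment at once. The KO and the EtOH control come from 1 engineered line, in which Cre is present in both. ChIP-seq of Zbtb11 was measured in 4 libraries of untreated E14 WT cells with an antibody to Zbtb11 and in 3 libraries of *Zbtb11* FLAG/FLAG E14 cells with an antibody to the FLAG tag, with 2 libraries of E14 WT cells as the FLAG control.

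The RNA-seq libraries held 14301457 to 23100544 reads on genes in the 4OHT control, 16644385 to 20416692 in the KO and 18872759 to 23876604 in the EtOH control. Libraries with replicate number 1 stood apart from the others in all 3 groups, and the biological coefficient of variation was 17.4% over all replicates and 6.8% without replicate 1. *Zbtb11* has no identifier of its own in the annotation used, and its locus lies within the annotated span of *Rpl24* (chr16:55966388-56009026, mm9), so the deleted gene cannot be followed. All 8 ESC markers, *Pou5f1*, *Sox2* and *Nanog* among them, were above 1 CPM (read counts scaled to the TMM-adjusted size of the library) in every library, with a summed level of 4102 to 4739 CPM in the KO, 4210 to 4651 CPM in the EtOH control and 4742 to 5167 CPM in the 4OHT control. In bulk samples, fewer cells of a type and less RNA per cell cannot be told apart. The summed markers of fibroblasts, endoderm, mesoderm and trophectoderm stayed between 2.48 and 26.6 CPM, those of neural cells (3 of 4 found) between 99.2 and 165 CPM, and the ranges of the 3 groups overlapped for each of these lists but trophectoderm, whose sum was 3.74 to 4.08 CPM in the 4OHT control and 2.48 to 3.23 CPM in the other groups.

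Sequences upstream of 4 of the genes are shown as examples of high Zbtb11 peaks (*Hus1* and *Hus1b*), an intermediate one (*Topbp1*) and a low one (*Rad17*). *Rad1*, which has the lowest peak, is described with the peaks. Each is the mm9 genome read in the direction of transcription and ending 1 base before the outermost annotated start. The stretches are chr11:8911195-8911444 (minus strand) for *Hus1*, chr13:31039629-31039878 (minus strand) for *Hus1b*, chr9:103207413-103207544 (plus strand) for *Topbp1*, which is all of the space between its start and that of the gene on the other strand, and chr13:101421015-101421264 (minus strand) for *Rad17*. None of them overlaps an annotated exon. The first 30 bases of the *Hus1b* transcript (chr13:31039599-31039628, 5' UTR) are given as well. Capitals mark CCGGAAG, the core of the sites bound by ETS family factors, searched on both strands.
Hus1 upstream: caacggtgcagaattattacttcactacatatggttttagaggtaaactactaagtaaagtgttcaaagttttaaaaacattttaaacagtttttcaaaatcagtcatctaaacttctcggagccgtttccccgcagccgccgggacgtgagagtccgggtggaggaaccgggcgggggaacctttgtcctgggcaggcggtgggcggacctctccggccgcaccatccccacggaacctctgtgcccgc
Hus1b upstream: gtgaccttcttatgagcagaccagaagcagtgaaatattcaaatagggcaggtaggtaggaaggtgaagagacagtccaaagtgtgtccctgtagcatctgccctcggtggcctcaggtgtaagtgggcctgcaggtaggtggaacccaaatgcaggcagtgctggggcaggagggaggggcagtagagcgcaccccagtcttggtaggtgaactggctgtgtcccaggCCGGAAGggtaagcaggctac
Hus1b first bases: actccaggCCGGAAGagtgaaccagctgac
Topbp1 upstream: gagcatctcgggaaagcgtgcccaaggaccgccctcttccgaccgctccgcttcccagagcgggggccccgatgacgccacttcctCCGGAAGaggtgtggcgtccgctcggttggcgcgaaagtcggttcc
Rad17 upstream: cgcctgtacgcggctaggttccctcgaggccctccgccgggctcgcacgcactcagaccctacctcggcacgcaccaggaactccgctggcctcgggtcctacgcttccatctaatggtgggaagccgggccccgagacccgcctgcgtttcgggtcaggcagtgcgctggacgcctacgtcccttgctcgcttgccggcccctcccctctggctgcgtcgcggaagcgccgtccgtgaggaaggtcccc
The *Hus1b* sequences hold the motif in the sense of transcription on each side of the start, its nearest base 15 bases upstream and 8 bases downstream. *Topbp1* holds it 40 bases upstream of the start, while the *Hus1* and *Rad17* stretches do not hold it. The motif was in the 250 bases upstream of 11.9% of the 14336 tested nuclear genes, so that its presence or absence at these genes is a description of the letters only. The palindromic site of the factor Nrf1, 10 bases long, was in 1.37% of the same windows and in none of the windows or peaks of the 9 genes.

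*Hus1* encodes a core subunit of the ring. Its level was 74.9, 80.7 and 90.8 CPM in the EtOH control, 13.95, 13.0 and 12.1 CPM in the KO and 103.8, 104.0 and 125 CPM in the 4OHT control, for replicates 1 to 3. The KO libraries lay far below every control library, and the 4OHT control libraries lay above every EtOH control library. The mean was 82.1 ± 8.07 CPM (SD, n = 3) in the EtOH control and 13.0 ± 0.926 CPM (n = 3) in the KO, or 15.8% of the EtOH control, and 111 ± 12.3 CPM (n = 3) in the 4OHT control. The log2 fold change of the KO against the EtOH control was -2.66 (standard error 0.12, 95% interval -2.92 to -2.39), the fourth lowest of 14346 genes tested. Within replicate numbers the log2 difference was -2.42, -2.63 and -2.90, and it was -2.77 in the fit without replicate 1. Against the 4OHT control, which shares the KO libraries with this comparison, the log2 fold change was -3.09 (standard error 0.12), also given without a test.

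*Hus1b* encodes a Hus1 paralogue of the same ring position. It was near the limit of detection, with 27, 33 and 23 counts in the EtOH control, 6, 4 and 2 counts in the KO and 22, 27 and 31 counts in the 4OHT control. In CPM this was 1.41, 1.41 and 1.06 in the EtOH control, 0.349, 0.194 and 0.0992 in the KO, and 1.51, 1.22 and 1.37 in the 4OHT control. The KO libraries again lay below every control library, and the 2 control groups overlapped. *Hus1b* was above 1 CPM in 6 of the 9 libraries, the control ones, and so passed the filter of more than 1 CPM in at least 3 libraries only through the groups where it is high. Its log2 fold change against the EtOH control was -2.60 (standard error 0.37, 95% interval -3.43 to -1.76) and -3.03 without replicate 1. From summed reads, the KO had 12 *Hus1b* counts in 57233843 reads on genes and the EtOH control 83 in 65097803, a level of 16.4% with an exact binomial 95% interval of 8.17 to 30.3% that covers counting error only. Against the 4OHT control the same ratio was 15.7% (7.78 to 28.9%).

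*Hus1b* is a gene of 1 exon (chr13:31038442-31039628, minus strand) that lies within an intron of *Exoc2*, which encodes a subunit of the exocyst and is on the same strand. The libraries were made from total RNA depleted of rRNA, so unspliced *Exoc2* RNA could be counted at *Hus1b*, and its part in the *Hus1b* counts was not tested. *Exoc2* itself was at 54.9, 44.4 and 44.6 CPM in the EtOH control and at 49.9, 40.5 and 44.2 CPM in the KO, with overlapping groups. Its log2 fold change was -0.10 (standard error 0.14, adjusted p = 1.0, edgeR). The exons of *Hus1b* and *Hus1* share no identical stretch longer than 12 bases. There were 0.82 to 2.5 *Hus1b* counts for every 100 *Hus1* counts over the 9 libraries, and the range of the KO libraries spanned that of both control groups.

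The other ring genes, *Rad9a*, *Rad9b* and *Rad1*, were at like levels in the KO and the EtOH control. *Rad9a* was at 29.6, 26.3 and 24.3 CPM in the EtOH control, 27.4, 25.7 and 23.7 CPM in the KO and 35.1, 35.3 and 27.5 CPM in the 4OHT control. The KO libraries lay within or just below the range of the EtOH control, and below all those of the 4OHT control. *Rad9b*, which is mainly known from testis, was at 7.28, 6.49 and 7.76 CPM in the EtOH control, 6.28, 7.89 and 6.69 CPM in the KO and 7.26, 7.66 and 8.02 CPM in the 4OHT control, and the 3 groups overlapped. *Rad1*, whose product binds both other ring subunits, was at 30.9, 36.3 and 37.4 CPM, 32.2, 36.5 and 36.6 CPM and 25.8, 31.7 and 34.5 CPM in the same order of groups, again with overlap. The log2 fold changes of the KO against the EtOH control were -0.06 (95% interval -0.34 to 0.22) for *Rad9a*, -0.04 (-0.36 to 0.27) for *Rad9b* and 0.01 (-0.27 to 0.30) for *Rad1*.

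*Rad17*, the clamp loader subunit, was at 44.9, 49.6 and 54.0 CPM in the EtOH control, 44.6, 51.7 and 49.7 CPM in the KO and 42.4, 48.2 and 49.3 CPM in the 4OHT control. *Topbp1*, which links the ring to Atr, was at 266.0, 238 and 243 CPM in the EtOH control, 257, 239.7 and 241 CPM in the KO and 270.3, 255 and 238 CPM in the 4OHT control. *Atr*, the kinase, was at 173, 152 and 156 CPM, 166, 145 and 146 CPM and 146, 146 and 168 CPM in these groups. For each of these genes the 3 groups overlapped. The log2 fold changes of the KO against the EtOH control were -0.02 (95% interval -0.25 to 0.21) for *Rad17*, -0.02 (-0.20 to 0.16) for *Topbp1* and -0.08 (-0.28 to 0.13) for *Atr*.

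*Chek1*, the effector kinase, was at 78.3, 81.4 and 80.5 CPM in the EtOH control, 74.9, 71.2 and 77.0 CPM in the KO and 62.3, 59.6 and 69.7 CPM in the 4OHT control. The 3 groups did not overlap, with the 4OHT control lowest and the EtOH control highest. The difference of the KO from the EtOH control was small, a log2 fold change of -0.11 (standard error 0.08, 95% interval -0.29 to 0.07).

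**Figure D1:**
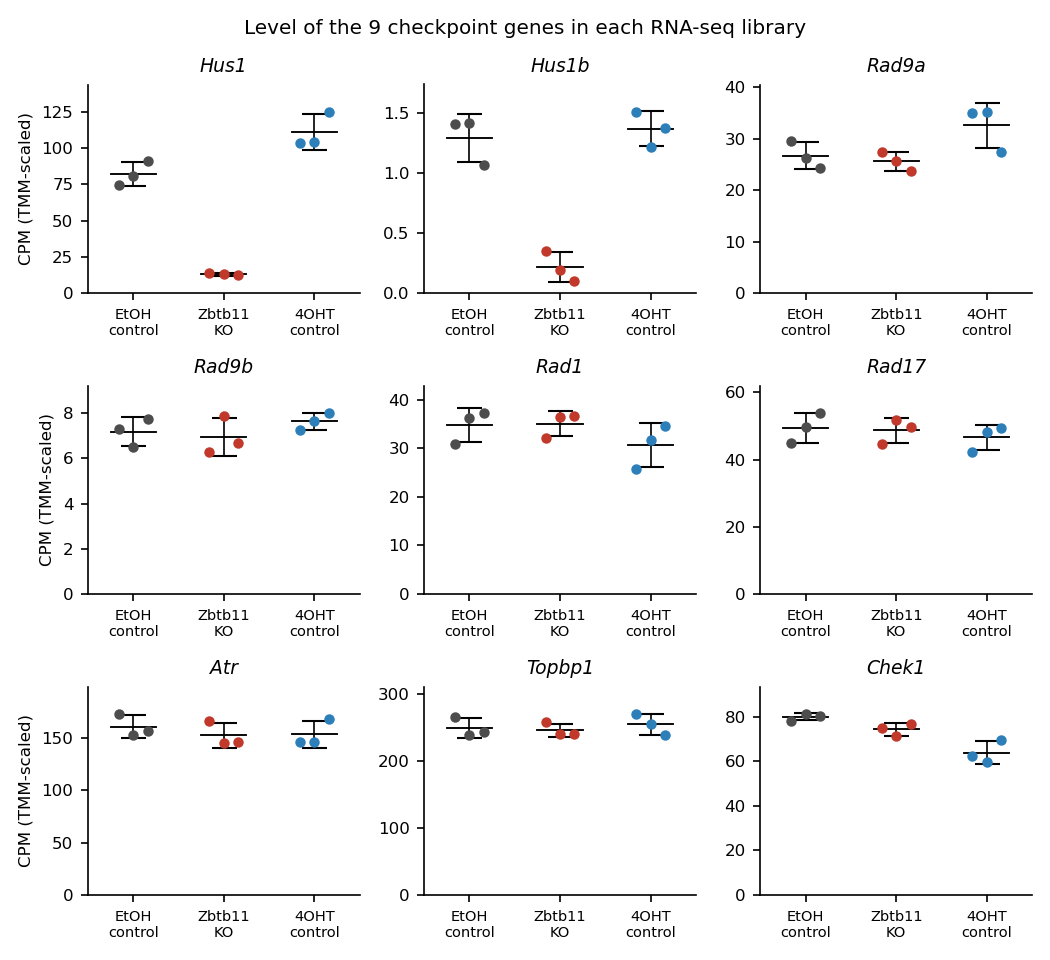
Level of the 9 genes in each RNA-seq library, in TMM-scaled CPM on axes that start at 0 and differ between panels. Points are libraries, the long bars means and the error bars SD (n = 3). *Hus1* and *Hus1b* are lower in the KO than in every control library, and the other 7 genes are at 92.9 to 101% of the EtOH control.

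By level per length of exons, in CPM per kb in the EtOH control, the order was *Topbp1* at 47.7 ± 2.82 (SD, n = 3), *Atr* at 18.9 ± 1.28, *Rad17* at 17.4 ± 1.60, *Chek1* at 17.2 ± 0.350, *Rad9a* at 13.1 ± 1.30, *Hus1* at 12.7 ± 1.25, *Rad1* at 4.71 ± 0.471, *Rad9b* at 2.46 ± 0.219 and *Hus1b* at 1.09 ± 0.168. In this measure the libraries of *Rad17* overlapped with those of *Atr* and of *Chek1*, and those of *Rad9a* with those of *Hus1*, while the other neighbours in the order did not overlap. In the KO the order of the other genes was the same and *Hus1* was at 2.02 ± 0.144 CPM per kb, below *Rad1* and overlapping with *Rad9b* at 2.38 ± 0.286. In the 4OHT control *Hus1*, at 17.2 ± 1.91 CPM per kb, lay between *Atr* at 18.0 ± 1.504 and *Rad17* at 16.4 ± 1.31 with overlap. The length is that of all annotated exons together, 6450 bases for *Hus1* and 7400 for *Rad1*, which lowers the level of genes with many annotated transcripts.

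Counted over the 9 genes, *Hus1* and *Hus1b* passed the threshold in the KO against the EtOH control (adjusted p under 0.05, edgeR), where 0.899% of 14346 genes tested did and 0.843% were lower. The ranges of the 2 groups did not overlap for 3 of the 9 genes, *Hus1*, *Hus1b* and *Chek1*, beside 7.21% of all genes tested. An unadjusted p under 0.05 was found for 2.8% of genes. With the replicate number as a block, a fit in which the numbers are taken to pair the libraries, *Hus1* and *Hus1b* were again the 2 called, beside 2.25% of all genes. Nothing is read from these counts, since the genes were chosen on this comparison. The 7 other genes lay between -0.11 and 0.01 on the log2 scale, with a median of -0.04 beside a median of 0.00 over all genes tested, and their 95% intervals together reached from -0.36 to 0.30.

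The 4OHT control against the EtOH control asks whether 4OHT and the difference in genotype move the genes without loss of Zbtb11. None of the 9 genes passed the threshold, where 4.05% of genes tested did, while 3 were at an unadjusted p under 0.05, as were 18% of genes, and DESeq2 called 2, beside 8.27%. Called genes were 17.1% without replicate 1. *Hus1* differed by 0.43 on the log2 scale (standard error 0.11, adjusted p = 0.0597, edgeR) and was higher in 3 of 3 replicate numbers. With the replicate number as a block, its adjusted p was 3.37e-05 (edgeR), and without replicate 1 it was 0.00969. *Chek1* differed by -0.33 (standard error 0.08, adjusted p = 0.0579, edgeR) and was lower in 3 of 3 numbers, with an adjusted p of 0.000202 under the block and 0.0211 without replicate 1. Under the block, *Rad9a* (0.29, adjusted p = 0.00404, edgeR) and *Rad1* (-0.18, adjusted p = 0.0382) also passed, beside 33.6% of genes tested (27.6% under the block without replicate 1). *Hus1b*, at 0.07 (95% interval -0.57 to 0.72, adjusted p = 0.935, edgeR), was measured too sparsely to show a difference of the size seen for *Hus1*. The groups did not overlap for *Hus1* and *Chek1*, 2 of the 9 genes, beside 21.7% of all genes.

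In the KO against the 4OHT control, which shares its libraries with both other comparisons, *Hus1* and *Hus1b* were past the threshold, as were 6.45% of genes tested. Nothing is read from this. *Hus1* was chosen on the same KO libraries, and *Hus1b* passed the filter only through the control groups. None of the 7 other genes passed (edgeR), with 2 at an unadjusted p under 0.05 (19.2% of all genes) and 0 called by DESeq2 (10.2%). *Rad9a* differed by -0.35 (standard error 0.12, adjusted p = 0.155, edgeR) and *Chek1* by 0.22 (standard error 0.08, adjusted p = 0.163, edgeR). With the replicate number as a block both passed, with adjusted p values of 0.000852 and 0.00594 (edgeR), as did *Rad1* at 0.20 (adjusted p = 0.0279), beside 34.9% of all genes (29.5% under the block without replicate 1). The groups did not overlap for *Hus1*, *Hus1b*, *Rad9a* and *Chek1*, 4 of the 9 genes, beside 22.9% of all genes. For these last 2 genes the mean of the KO lay closer to that of the EtOH control than to that of the 4OHT control, and the cause was not tested.

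**Figure D2:**
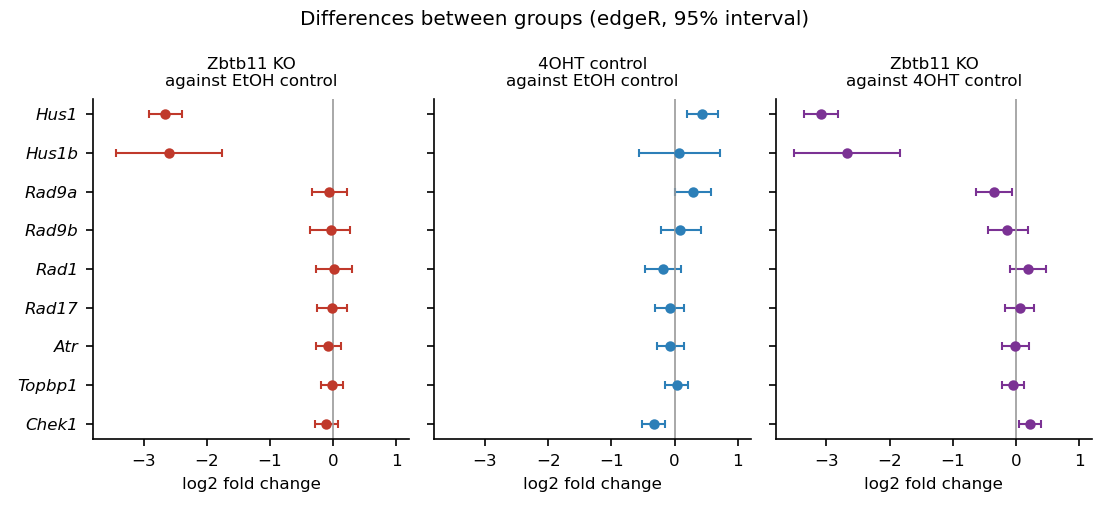
Log2 fold change of the 9 genes in the 3 comparisons, with 95% intervals from edgeR (n = 3 libraries per group). *Hus1* and *Hus1b* lie near -2.66 and -2.60 in the KO against the EtOH control, and the intervals of the other 7 genes hold 0 there.

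Of 32 further genes of the checkpoint, all were tested. They are other subunits of the Rad17 loader and of related clamp loaders (7 genes), activators and mediators of Atr (9), targets of Chk1 (5) and the branch of the related kinase Atm (11). None passed in the KO against the EtOH control (edgeR), beside 0.899% of all genes, and none was at an unadjusted p under 0.05, called by DESeq2 (1.25% of all genes) or higher under the block (0.46%). Their log2 fold changes were between -0.11 (*Brca1*) and 0.25 (*Nbn*), with a median of 0.00. In the 4OHT control against the EtOH control 4 of the 32 were lower and 0 higher, beside 2% of all genes lower. These were *Rfc4*, a small subunit of the clamp loader (-0.56, standard error 0.10, adjusted p = 0.0184, edgeR), *Chek2*, the effector kinase of Atm (-0.55, standard error 0.08, adjusted p = 0.00879), *Brca1* (-0.41, standard error 0.06, adjusted p = 0.0116) and *Mre11a*, a nuclease that senses broken ends (-0.36, standard error 0.08, adjusted p = 0.0411). The same 4 genes were higher in the KO than in the 4OHT control, whose libraries both comparisons share, by 0.55, 0.47, 0.30 and 0.48 (adjusted p values of 0.0121, 0.00933, 0.0264 and 0.00762, edgeR), where 2.73% of all genes were higher.

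The mean of *Rfc4* was 62.3 ± 0.782 CPM (SD, n = 3) in the EtOH control, 62.1 ± 7.34 CPM in the KO and 42.2 ± 3.29 CPM in the 4OHT control. *Chek2* was at 66.0 ± 1.54, 62.3 ± 3.80 and 45.0 ± 2.84 CPM in these groups. For both, the 4OHT control libraries lay below all others, and the EtOH control and the KO overlapped. *Brca1* ranged from 315.1 to 320.3 CPM in the EtOH control and from 288.5 to 300.6 CPM in the KO. *Mre11a* ranged from 122.4 to 135.6 CPM and from 139.1 to 144.5 CPM in these groups. For *Brca1* and *Mre11a* the 4OHT control libraries were again lowest, but the EtOH control and the KO did not overlap. The KO was lower for *Brca1* and higher for *Mre11a*, and neither passed the threshold there (edgeR). For *Chek1* the 4OHT control was also lowest, and no groups overlapped. Genotype and treatment cannot be told apart here. With the replicate number as a block 15 of the 32 genes passed in the 4OHT control against the EtOH control, 13 lower and 2 higher (16.5 and 17% of all genes), and 17 in the KO against the 4OHT control, 15 higher and 2 lower (16.8 and 18.1%). The count of 4 in the 4OHT control against the EtOH control was 10 without replicate 1 (17.1% of all genes) and 0 without replicate 2 or 3 in every group. It was 1 without EtOH control replicate 2, 0 without EtOH control replicate 3 and 2 without 4OHT control replicate 2. The count of 4 in the KO against the 4OHT control was 11 without replicate 1 (18.7% of all genes), 0 without replicate 2 or 3, and 2 without KO replicate 2 or 4OHT control replicate 2. No share of all genes is given for the other fits with samples left out, so their counts are a description only.

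The genes with a pattern most like *Hus1* over the 9 libraries were *Ttc4* (Pearson r = 0.997 in log2 CPM), *Ankrd40* (0.997), *Trip4* (0.995), *Rad54l2* (0.994) and *Arl6ip4* (0.994). Each was lowest in the KO and highest in the 4OHT control. Mean levels in the EtOH control and the KO were 60.9 and 9.29 CPM for *Ankrd40* and 43.5 and 17.7 CPM for *Ttc4*, with log2 fold changes of -2.71 and -1.30, the largest and the smallest in size of the 5. Among the checkpoint genes r with *Hus1* was 0.96 for *Hus1b*, 0.52 for *Rad9a* and -0.34 for *Rad1*, with the others between. These are descriptions over libraries that fall into 3 groups.

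Zbtb11 peaks were found at the promoters of 5 of the 9 genes, *Hus1*, *Hus1b*, *Topbp1*, *Rad17* and *Rad1*, with promoters taken as 2 kb upstream to 500 bases downstream of each annotated start. Of all 14346 genes tested, 31.1% had such a peak among the 7500 peaks that both antibodies detected. The same 5 genes had a peak in the full lists of 8957 Zbtb11 peaks and 9350 FLAG-Zbtb11 peaks, and none had one among the 274 peaks of the FLAG control. No peak of the 7500 lay within the promoters of *Rad9a*, *Rad9b*, *Atr* or *Chek1*, where the nearest was 8778, 33500, 96825 and 40353 bases from the outermost start.

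The peak at *Hus1* (chr11:8910592-8911791, mm9) is centred 3 bases downstream of the outermost start and covers all 5 annotated starts, which span 513 bases. Its coverage, in reads normalised between libraries, was 542, 790.3, 520.1 and 958 in the Zbtb11 libraries and 617, 619 and 381 in the FLAG-Zbtb11 libraries. Every Zbtb11 library was above 308.9, the limit set on the mean of the 4 for a Zbtb11-high peak (1.5 interquartile ranges over the upper quartile), and every FLAG-Zbtb11 library above 260.5, the like limit for FLAG. The mean was 703 ± 210 (SD, n = 4) with the Zbtb11 antibody, rank 189 of 7500, and 539 ± 137 (n = 3) with FLAG, rank 296.

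The peak at *Hus1b* (chr13:31039110-31040309) is centred 81 bases upstream of its start. Its coverage was 447, 670.1, 435 and 855 in the Zbtb11 libraries and 622, 592 and 328 in the FLAG-Zbtb11 libraries, again above the limit of its antibody in each. The mean was 602 ± 201 (n = 4), rank 345. *Exoc2*, the gene around *Hus1b*, has a peak of its own at a promoter (chr13:31065405-31066604), 26295 bases away, at 384 ± 46.7 (n = 4), rank 661 and also over the limit, beside the log2 fold change of -0.10 given above. Another annotated start of *Exoc2* lies 2539 bases from that of *Hus1b*, on the same strand. Whether the peak at *Hus1b* also belongs to that start was not tested. Of the tested genes, 6.08% had a Zbtb11-high peak at the promoter.

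The remaining peaks were lower. *Topbp1* (chr9:103206979-103208178) had 191, 239, 242 and 309 in the Zbtb11 libraries, a mean of 245 ± 48.3 (n = 4) and rank 1108, below the limit, and 267 ± 50.8 (n = 3) with FLAG, just over the limit for FLAG. *Rad17* (chr13:101420481-101421680) had 37.8, 72.1, 69.0 and 60.3, a mean of 59.8 ± 15.5 and rank 4328. *Rad1* (chr15:10415135-10416334) had 64.5, 62.5, 58.7 and 21.3, a mean of 51.8 ± 20.4 and rank 4790. The last 2 were below 71.3, the median of all peaks with the Zbtb11 antibody. With FLAG, *Rad17* was at 109 ± 28.2 (n = 3), rank 2247 of 7500, and *Rad1* at 78.1 ± 7.41 (n = 3), rank 3157.

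**Figure D3:**
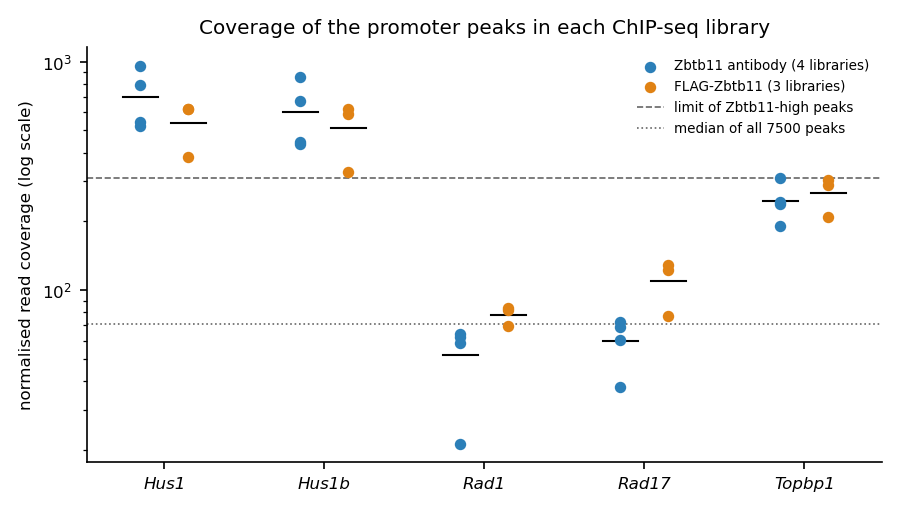
Normalised read coverage (log scale) of the promoter peaks in the 4 Zbtb11 and 3 FLAG-Zbtb11 libraries, with means as black bars. The dashed line is the limit of Zbtb11-high peaks (308.9) and the dotted line the median of all peaks (71.3), both from the Zbtb11 antibody. *Hus1* and *Hus1b* lie above the limit in every library, and *Rad1* and *Rad17* nearer the median.

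The 3 genes with a low or intermediate peak each share the peak with a gene that starts on the other strand, *Rad1* with *Brix1* (71 bases between starts), *Topbp1* with *1300017J02Rik* (133 bases) and *Rad17* with *Taf9* (284 bases), so a peak there cannot be assigned to 1 gene. *Rad9b* also has such a neighbour, *Vps29* (136 bases), without a peak. None of these neighbours passed the threshold in the KO against the EtOH control (edgeR). *1300017J02Rik*, near the limit of detection, differed most, by 0.67 (standard error 0.27, adjusted p = 1.0, edgeR), from 0.964 ± 0.247 CPM to 1.53 ± 0.248 CPM (n = 3), and *Brix1*, a ribosome assembly factor, by -0.09 (standard error 0.17, adjusted p = 1.0). *Taf9* has 2 identifiers in the annotation, at 0.07 and -0.05, and reads shared by them are uncertain. *Hus1* and *Chek1* have no gene that overlaps them or starts within 1 kb on the other strand. On the other strand *Rad9a* overlaps *Ppp1ca* (222 bases), *Rad9b* overlaps *Pptc7* (1059 bases) and *Atr* overlaps *1700065D16Rik* and *Gm16794*, and a U1 gene lies within *Atr* on the same strand. The libraries kept strand, but the strand setting of the counting is not given in the sources used here, so the levels of these overlapping genes are uncertain.

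In the peaks, CCGGAAG was found 0 times at *Hus1* and *Rad17*, 2 times at *Hus1b* and *Topbp1* and 4 times at *Rad1*, where a pair overlaps. It was in 39.1% of the 7500 peaks and in 57.6% of the 857 Zbtb11-high peaks. Around the start, from 250 bases upstream to 50 downstream, *Hus1* had 54.7% GC and an observed over expected CpG ratio of 0.937, and *Hus1b* 57.7% GC and a ratio of 0.21, beside medians of 59.7% and 0.725 over tested genes. *Rad17*, *Topbp1* and *Rad1* had 71.3, 67.3 and 62.3% GC with ratios of 0.842, 1.01 and 1.02. The 2 genes with a Zbtb11-high peak thus lay on either side of the median CpG ratio.

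**Figure D4:**
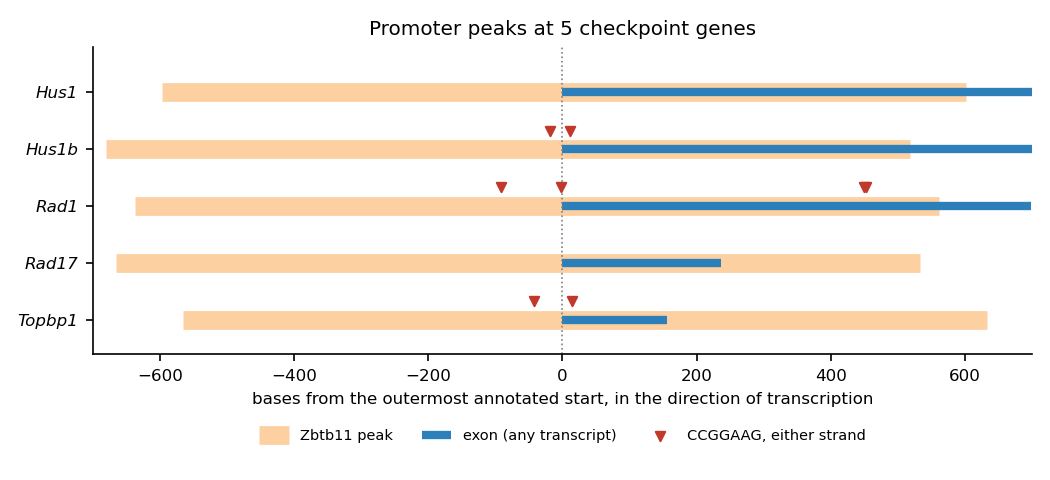
Position of the promoter peaks (pale bars, 1200 bases each) and of annotated exons (blue, all transcripts together) relative to the outermost start of each gene, in bases in the direction of transcription. Triangles mark CCGGAAG on either strand, which lies near the start of *Hus1b*, *Rad1* and *Topbp1* and in no part of the *Hus1* and *Rad17* peaks.

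Among the tested genes, 112 of 872 with a Zbtb11-high peak at the promoter were lower in the KO than in the EtOH control (12.8%), beside 2 of 3587 with another peak (0.0558%) and 7 of 9887 without one (0.0708%). *Hus1* and *Hus1b* belong to the first of these groups, *Topbp1*, *Rad17* and *Rad1* to the second, and *Rad9a*, *Rad9b*, *Atr* and *Chek1* to the third. Of the 32 further checkpoint genes 11 had a peak at the promoter and 3 a Zbtb11-high one, beside 31.1 and 6.08% of all genes tested. The 3 are in the list of the Atm branch, and nothing is read from that. *Nbn*, which binds Mre11a and recruits Atm to broken ends, had a coverage of 669 ± 177 (SD, n = 4), rank 236, and a log2 fold change of 0.25 (standard error 0.12, adjusted p = 1.0, edgeR). *Brca1* had 409 ± 106 (n = 4) and *Mre11a* 313 ± 78.1 (n = 4), with log2 fold changes of -0.11 and 0.13. The coverage at *Nbn* lay between those at *Hus1* and *Hus1b*, and its level was 39.0 ± 2.65 CPM in the EtOH control and 46.3 ± 1.06 CPM in the KO (SD, n = 3).

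**Figure D5:**
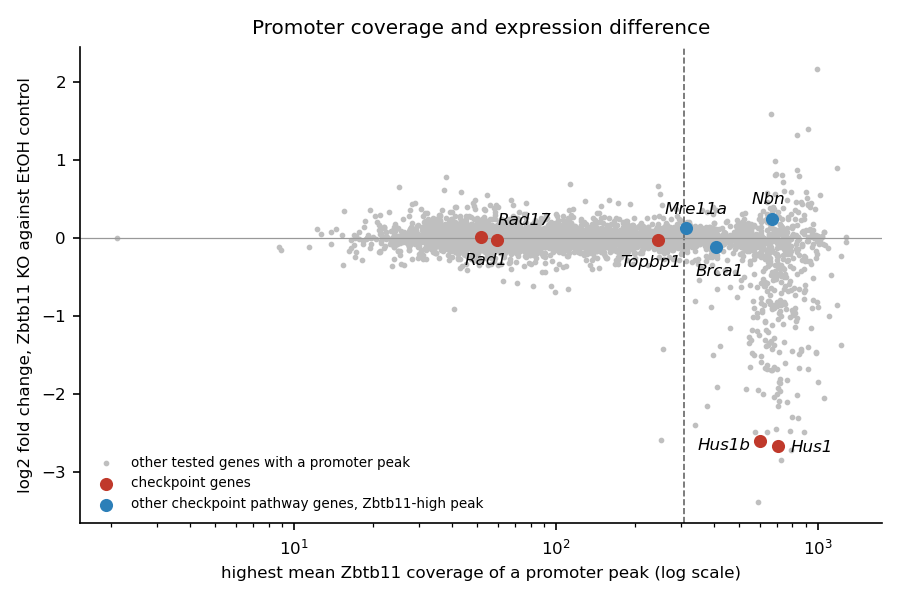
Highest mean Zbtb11 coverage of a promoter peak (log scale, 4 libraries) against the log2 fold change of the KO against the EtOH control, for the tested genes with a promoter peak (grey), the 5 checkpoint genes with one (red) and the 3 further checkpoint pathway genes with a Zbtb11-high peak (blue). *Hus1* and *Hus1b* lie at 703 and 602 on the x axis and near -2.66 and -2.60 on the y axis, *Nbn* at 669 and 0.25.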

How the data were processed

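RNA-seq libraries (rRNA-depleted total RNA, directional) were compared between 3 groups of 3 replicates. The deposited counts per gene were made by the authors with TrimGalore, PRINSEQ, STAR and HTSeq and are not normalised. The coverage signal of 7500 peaks of 1200 bases is the authors' DiffBind normalisation, and the peak lists are theirs from MACS2 within the IDR pipeline, on mm9 alignments (Bowtie 1.1.2 in the submitters' processing notes). Means of coverage in that table and the input libraries were not used here.

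The test was the quasi-likelihood F test of edgeR 4.0.16 (legacy form, TMM scaling, 1 model of all 3 groups) under R 4.3.3. It covered the 14346 genes that exceeded 1 CPM in 3 or more libraries, with Benjamini-Hochberg adjustment over all of them and a threshold of 0.05. The method was tested on simulated data. Log2 CPM used a prior count of 2. DESeq2 1.42.0, other filters, scalings and thresholds, and fits without each replicate or library were alternatives. Intervals of log2 fold changes come from the edgeR fit and include the spread between replicates, the binomial interval of *Hus1b* covers counting error only, and 1 count is 0.0419 to 0.0699 CPM.

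The 9 genes and all gene lists were chosen with earlier results of these data known. The text names the 9 genes, list genes past the threshold, the 5 genes most like *Hus1* by Pearson r, their overlapping or divergent neighbours and the gene at the deleted locus. *Nbn* and *Cdkn1a* were picked after their values were seen. One list gene, *Rhno1*, was matched by a RefSeq synonym.

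The replicate numbers were taken to pair the libraries in the fits with a block. Deviations from the group mean in log2 CPM, taken across genes, had correlations of 0.43 to 0.82 for pairs that shared a number. The rest reached 0.526 at most. Pairs that shared number 1 (0.791 to 0.82) or number 3 (0.601 to 0.685) lay above the rest. Those that shared number 2 (0.43 to 0.522) did not, so the pairing of number 2 is uncertain. Gene positions came from GENCODE vM1, and samtools 1.23.1 extracted the mm9 bases. Python 3.11.15 with numpy 2.4.6, pandas 2.3.3, scipy 1.17.1 and matplotlib 3.10.9 was used for the rest.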

Additional observations from a re-analysis of the deposited data

Results flagged for a closer look

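The coverage of the *Rad1* promoter peak was 64.5, 62.5 and 58.7 in 3 of the Zbtb11 antibody libraries and 21.3 in the replicate 4 library, whose gap to the others was large for 4 values. That library had the highest coverage of the 4 at the *Hus1*, *Hus1b* and *Topbp1* peaks. Of the 5 peaks looked at, 1 stood out in this way, and chance gives about 1 in 20 such groups. The FLAG-Zbtb11 libraries had 69.7, 83.3 and 81.4 at the same peak.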

How the results depend on the processing

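The log2 fold change of *Hus1* in the KO against the EtOH control stayed between -2.77 and -2.53 with each replicate number or library left out, and its peak coverage between 618 and 764 when any 1 Zbtb11 library was dropped. The other settings moved neither by more than the spread between replicates, and 5 of the 9 genes kept a promoter peak under every window, list and overlap. In the KO against the EtOH control 2 of the 9 genes passed, 1 with a filter of more than 5 CPM, which *Hus1b* does not pass, and 1 to 2 with a replicate or library left out, where replicate 2, replicate 3 and KO replicate 2 gave 1. Nothing is read from this count in any setting, since the genes were chosen on this comparison. In the KO against the 4OHT control the count was 2, 5 with the replicate block, 4 with the replicate block and without replicate 1 (chosen after seeing the data), 1 with the 5 CPM filter and 1 to 2 with samples left out, where replicates 2 and 3 gave 1. Nothing is read from *Hus1* and *Hus1b* within this count in any setting. Of all genes in this comparison, 34.9% passed with the block, 29.5% with the block and without replicate 1, 18.7% without replicate 1 and 10.2% with DESeq2. In the 4OHT control against the EtOH control the count of 0 became 4 with the block, 3 with the block and without replicate 1, 2 with DESeq2, 1 with library sizes without TMM, 2 with the 5 CPM filter and 0 to 2 with samples left out. The shares of all genes were 33.6% with the block, 27.6% with the block and without replicate 1, 17.1% without replicate 1 and 8.27% with DESeq2. For the 32 further genes the count of 4 in the 4OHT control against the EtOH control became 15 with the block, 15 with the block and without replicate 1, 7 with DESeq2, 2 with only the 2 groups compared, 1 at an adjusted p under 0.01 and 0 to 10 with samples left out. Their count of 4 in the KO against the 4OHT control became 17, 14, 7 and, at 0.01, 2 in the same settings other than the 2 groups, 7 without TMM and 0 to 11 with samples left out. The shares of all genes given for the 9 genes with the block, without replicate 1 and with DESeq2 hold for these counts too. No share is given for the other settings, so counts in those settings are a description only. The causes were not tested. The replicate block changed no other call among the 9 genes in the report. At the depth of these libraries *Hus1b* is limited by its 2 to 33 counts.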

Other observations

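Lists of cell cycle and p53 target genes were also followed. Of 13 S phase genes, 10 genes of G2 and mitosis and 12 p53 target genes, none passed in any of the 3 comparisons (edgeR). In the KO against the EtOH control none was at an unadjusted p under 0.05 (2.8% of all genes) or called by DESeq2 (1.25%). In that comparison the S phase genes lay between -0.13 and 0.01 on the log2 scale, the G2 and mitosis genes between -0.09 and 0.09, and the p53 target genes between 0.00 and 0.45, with medians of -0.04, 0.01 and 0.11. In the 4OHT control against the EtOH control 5, 0 and 1 genes of these lists were at an unadjusted p under 0.05, beside 18% of all genes. DESeq2 called 2, 0 and 0 there, beside 8.27%. In the KO against the 4OHT control 4, 1 and 2 were at an unadjusted p under 0.05 (19.2% of all genes). DESeq2 called 1, 0 and 2 in that comparison (10.2%).

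The replicate block changed these counts. In the 4OHT control against the EtOH control it called 8 S phase genes lower and 1 higher and 1 gene of G2 and mitosis higher, beside 16.5% of all genes lower and 17% higher. In the KO against the 4OHT control it called 5 S phase genes higher and 1 lower, and 1 gene of G2 and mitosis in each direction, beside 16.8% of all genes higher and 18.1% lower. Without replicate 1, 4 S phase genes were lower in the first of these comparisons, and 1 was higher and 1 lower in the other. Called in either direction in that fit were 17.1 and 18.7% of all genes.

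With the replicate number as a block, 3 of the 12 p53 target genes were higher in the KO than in the EtOH control, beside 0.46% of all genes higher. These were *Phlda3* (0.45, adjusted p = 0.00155, edgeR), *Mdm2* (0.23, adjusted p = 0.0145) and *Ccng1* (0.23, adjusted p = 0.0148), named after their values were seen. Their adjusted p values were 0.0919, 0.058 and 0.31 without replicate 1 and no block. *Cdkn1a*, the inhibitor of cyclin-dependent kinases that p53 induces, was at 0.07 (standard error 0.53). In the 4OHT control against the EtOH control the block called 7 of the 12 lower and 1 higher, beside 16.5 and 17% of all genes, and in the KO against the 4OHT control 8 higher and 0 lower, beside 16.8 and 18.1%. Without replicate 1 and no block, 3 were lower and 0 higher in the first of these comparisons, and 7 higher and 0 lower in the other. Called in either direction in that fit were 17.1 and 18.7% of all genes.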
